A study of Mus musculus with 4 samples.

Results

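The array entries mmu-miR-720, mmu-miR-1937b, mmu-miR-1937c and mmu-miR-1274a are 4 probes named as microRNAs that are grouped here as tRNA-fragment entries. They were taken by name from the 696 non-control entries of each array, and no other miR-1937 probe was present. All 4 were found, and all 4 were flagged as detected on each of the 4 arrays. The RNA was that of untreated mandibular molar germs, dissected from embryos of the outbred mouse strain ICR on embryonic day 11, 12, 14 or 16 (stages E11, E12, E14 and E16). Each stage has 1 single-colour Agilent microRNA array, made from 100 ng of total RNA labelled with Cy3 at its 3′ end. How many embryos lie behind an array is not stated in the sources. With 1 array a stage there was no replicate check, no test between stages could be made, and the number of arrays limits the precision. Values written with ± are the error that the files state for a signal on its array, or errors combined from these.

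Transfer RNAs are the short adaptors that bring amino acids to the ribosome, and nucleases can cut them into fragments about as long as a microRNA. Several entries of early microRNA catalogues were later withdrawn because their reads matched transfer RNA and not a hairpin precursor. Among the human entries, miR-720 and miR-1274a are known examples. Direct 3′ labelling of total RNA marks any RNA with a free 3′ end, so a probe that matches the end of a transfer RNA could read whole molecules and fragments alike. The deposited files hold no probe sequences, so what RNA these 4 probes read was not tested. None of their names matched a microRNA of RefSeq's GRCm38.p6 annotation (0 of 4, against 654 of all 696 names).

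Markers of both layers of the tooth germ were detected. Of 7 epithelial markers such as miR-205 and the miR-200 family, 6, 7, 7 and 7 were detected at E11, E12, E14 and E16, with summed signals of 1795, 3382, 5363 and 9364. All 4 mesenchymal markers were detected on every array, with sums of 8664 to 14120.1. The 4 muscle probes and the liver probe miR-122 were not detected on any array. Of 2 erythroid probes, 1, 1, 1 and 2 were detected, with sums of 404, 422, 665 and 1229.7, and of 2 leukocyte probes 0, 1, 1 and 2, with sums of 0, 17.6, 32.6 and 146.8. Their part in the results below was not tested. The arrays detected 209 to 250 of 696 entries, with a median stated error of 9.04% to 9.55% of the signal.

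The signals of the 4 entries hardly differed between the stages as deposited. These signals are the total gene signals of each array, an intensity on a linear scale that is not scaled between arrays. mmu-miR-1937b had signals of 68927 ± 5146 at E11, 68981 ± 5131 at E12, 69866 ± 5184 at E14 and 73629.5 ± 5469 at E16. Its highest signal, at E16, was 1.07 times its lowest, at E11. mmu-miR-720 had 9077 ± 769, 9696 ± 824, 9153 ± 778 and 9767.5 ± 835 at E11, E12, E14 and E16, with a highest-to-lowest ratio of 1.08. E12 and E16 were the higher stages for miR-720, and E11 and E14 the lower.

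mmu-miR-1937c had 1104 ± 82.2, 1124 ± 85.6, 1252 ± 95.7 and 1260.5 ± 94.9 at E11, E12, E14 and E16. This entry was lower at E11 and E12 than at E14 and E16, and its ratio of highest to lowest was 1.14. mmu-miR-1274a had 1277 ± 104.3, 1256 ± 103.5, 1280.2 ± 105.2 and 1190.1 ± 97.9, lowest at E16 and within a ratio of 1.08. The coefficient of variation over the 4 stages was 3.80% for miR-720, 3.17% for miR-1937b, 6.96% for miR-1937c and 3.34% for miR-1274a. Each of these lay below the entry's own stated error on every array, which was 7.42% to 8.55% of the signal over the 16 values. The stages are not replicates of a condition, so this spread holds any difference between stages together with the variation between arrays.

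**Figure D1:**
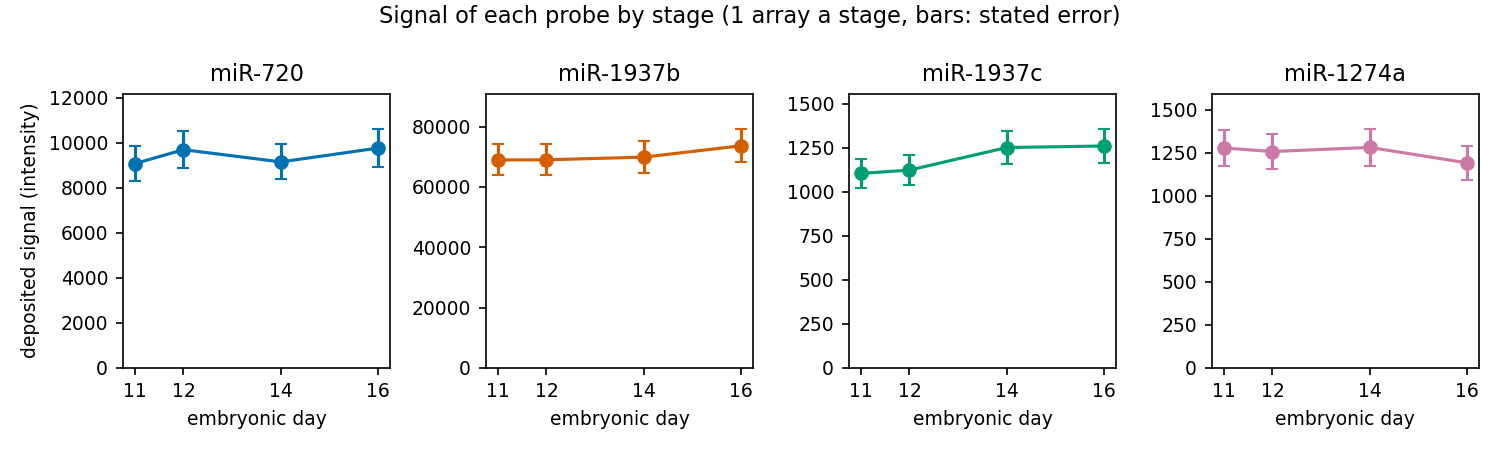
Deposited signal (vertical axis, linear intensity starting at 0, own scale for each panel) of miR-720, miR-1937b, miR-1937c and miR-1274a against embryonic day. Points are single arrays and bars the stated error. The bars of the 4 stages overlap within each panel.

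Set beside all 197 entries detected on every array, the 4 had the narrowest ranges over the stages on the deposited signals, but not once the E14 array was left out or the arrays were scaled. The highest minus the lowest log2 signal was 0.10 for miR-1937b, 0.11 for miR-1274a, 0.11 for miR-720 and 0.19 for miR-1937c, places 1, 2, 3 and 4 of the 197. The median over the members was 0.11, against 1.42 over all 197. The nearest other entry was miR-149 with 0.20, and the widest range was 6.28. Without E14, 7 other entries were as narrow as the widest member, and the members took places 3 (miR-1937b), 4 (miR-1274a), 6 (miR-720) and 11 (miR-1937c). After scaling to the 75th percentile, described below, their ranges were 1.24 to 1.54, against a median of 1.33 over the 197, and they took places 90 (miR-1937c), 99 (miR-720), 100 (miR-1937b) and 123 (miR-1274a).

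Bright probes tend to carry smaller relative errors, so the same was read among bright entries alone, a choice made after seeing the data. This left 23 entries with a mean signal of at least 1185, the mean of miR-1937c. As the 4 members were the narrowest of all 197, they had to be the narrowest here too, so their place adds nothing. The median range of those 23 was 1.003, and the narrowest of the other 19 was that of miR-20a at 0.28. Brightness differed widely among the members themselves, with mean signals of 70351 for miR-1937b, 9423 for miR-720, 1251 for miR-1274a and 1185 for miR-1937c. On the deposited signals the narrow range was present at both ends of that span. The stated error did not follow brightness among the members, at 8.47% to 8.55% for miR-720 and 7.45% to 7.65% for the dimmer miR-1937c. The files hold no saturation flag, so whether the brightest probe was near the limit of the scanner was not tested.

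**Figure D2:**
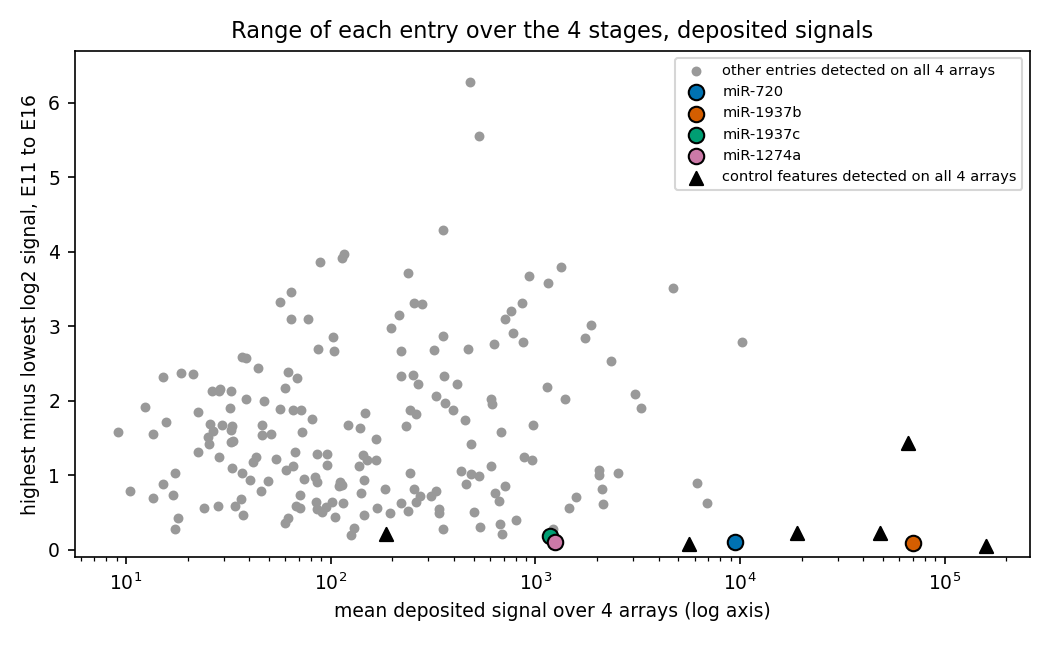
Highest minus lowest log2 deposited signal over E11, E12, E14 and E16 (vertical axis) against mean deposited signal (horizontal log axis). Large circles are miR-720, miR-1937b, miR-1937c and miR-1274a, grey dots the other entries detected on all 4 arrays, and triangles control features. The 4 members lie at 0.10 to 0.19, while the median of the 197 entries is 1.42.

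Some control features were also steady on the deposited signals. Of 22 control features per array, 16 were detected on no array and 6 on all 4. Of these 6, mr_1 and hur_2 had log2 ranges of 0.08 and 0.05, within the members' 0.19, while miRNABrightCorner30, hur_1 and hur_4 had 0.22, 0.23 and 0.23. The feature mr_1 read 5841, 5515, 5786 and 5511 at E11, E12, E14 and E16, and hur_2 read 162155, 156465, 160661 and 159441. The widest was hur_6 at 1.43, with 60407, 40693, 109779 and 53994, a ratio of 2.70 between E14 and E12. The sources do not state what these features target.

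The comparison of the last with the first stage asks how the entries stood at E16 against E11. On the deposited signals the log2 difference, E16 minus E11, was 0.11 ± 0.17 for miR-720, 0.10 ± 0.15 for miR-1937b, 0.19 ± 0.15 for miR-1937c and -0.10 ± 0.17 for miR-1274a. For 3 of the 4, all but miR-1937c, the difference was within its combined stated error. The same held for 38 of 205 entries detected at both stages, or 18.5%. By a size rule of 2-fold, 0 of 4 members were higher and 0 lower at E16, against 44.9% of all entries higher and 4.39% lower. The median over all 205 was 0.69, so each member lay below the middle of the distribution, with 34 (miR-1274a) to 57 (miR-1937c) entries lower than it.

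Scaling the arrays to the 75th percentile placed all 4 entries lower at E16 than at E11. The scaling used here subtracts from each log2 signal the 75th percentile of the 197 entries detected on every array, and that percentile was higher by 1.44 at E16 than at E11. On this scale the E16 minus E11 difference was -1.33 ± 0.17 for miR-720, -1.34 ± 0.15 for miR-1937b, -1.24 ± 0.15 for miR-1937c and -1.54 ± 0.17 for miR-1274a. All 4 thus passed 2-fold downward, by sizes of 2.37 to 2.90 times, and 0 passed upward. Of all 205 entries 37.6% passed downward and 13.7% upward, and their median was -0.74. Relative to that median, a distance that a constant shift per array leaves unchanged, miR-720, miR-1937b, miR-1937c and miR-1274a stood at -0.59, -0.60, -0.50 and -0.79. Quantile normalization, which is no constant shift, placed miR-720 and miR-1937b at 0.41 above the median instead, as given with the authors' table below. The sign of the difference thus depended on the scaling for miR-720, miR-1937b and miR-1937c. miR-1274a was negative on both scales, but within its stated error as deposited.

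**Figure D3:**
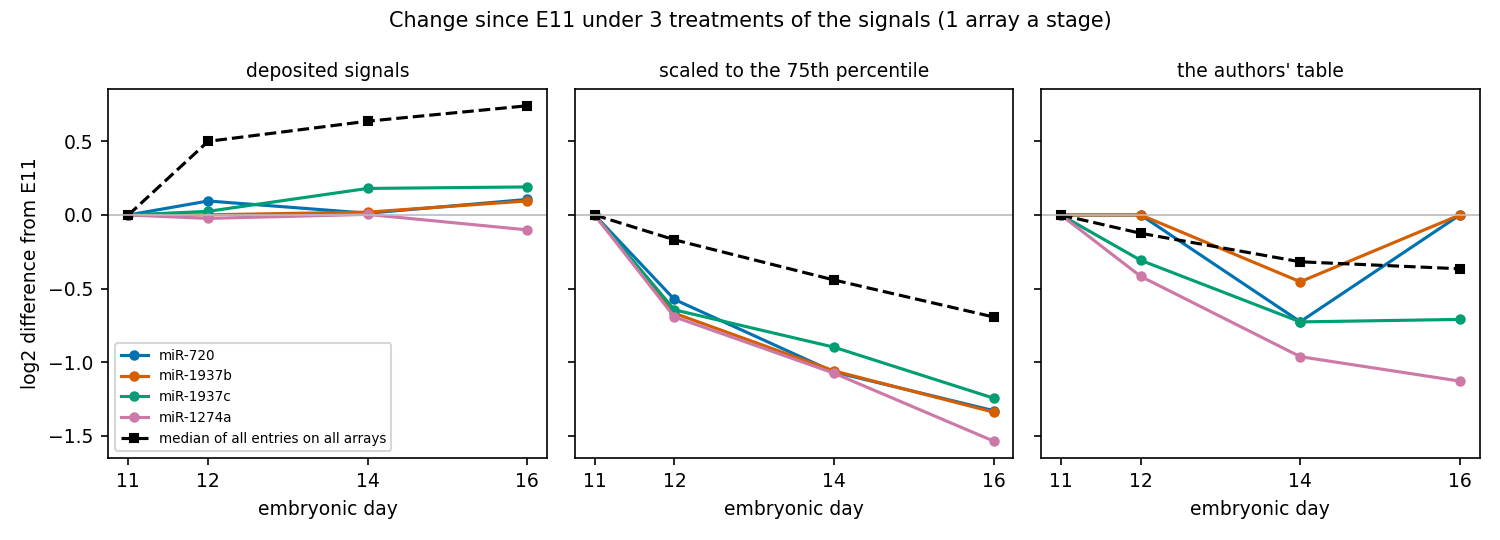
Log2 difference from E11 (vertical axis) against embryonic day for miR-720, miR-1937b, miR-1937c, miR-1274a and the median of the 197 entries detected on all arrays (dashed), on the deposited signals, after scaling to the 75th percentile, and in the authors' table. Points are single arrays. At E16 the members lie at -0.10 to 0.19 on the deposited signals and at -1.54 to -1.24 after scaling, below the median in both. In the authors' table miR-720 and miR-1937b lie at 0, above the median of -0.37, and the other 2 members below it.

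The steps between consecutive stages were small for the members as deposited. From E11 to E12, the log2 difference was 0.10 ± 0.17 for miR-720, 0.0011 ± 0.15 for miR-1937b, 0.025 ± 0.15 for miR-1937c and -0.023 ± 0.17 for miR-1274a. All 4 were within the combined stated error, as were 23.9% of all 201 entries. By the 2-fold rule 0 of 4 members were higher and 0 lower at E12, against 22.9% of all entries higher and 0.995% lower, and the median of all entries was 0.47. After scaling, the members stood at -0.69 to -0.57 and again 0 of 4 passed 2-fold, against 9.45% of entries upward and 8.46% downward.

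At E14 against E12 the members and the median entry both stood near 0 on the deposited signals. The log2 difference was -0.08 ± 0.17 for miR-720, 0.02 ± 0.15 for miR-1937b and 0.03 ± 0.17 for miR-1274a, beside a median of 0.01 over 212 entries. miR-1937c, at 0.16 ± 0.16, stood at the edge of its error. The other 3 members were within theirs, as were 25.0% of all entries. None of the 4 passed 2-fold, against 17.0% of entries higher and 4.25% lower as deposited. After scaling, members were at -0.49 to -0.25, with 0 of 4 past 2-fold and 12.7% of entries higher and 15.1% lower.

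At E16 against E14 miR-1274a stood at -0.11 ± 0.17 as deposited, and the other 3 at 0.01 (miR-1937c), 0.08 (miR-1937b) and 0.09 (miR-720). All 4 were within the combined stated error, as were 26.0% of 231 entries, and the median of all entries was 0.30. None passed 2-fold, against 15.6% of entries higher and 12.1% lower as deposited. Scaled values were -0.46 to -0.26, also with 0 of 4 past 2-fold, against 7.36% higher and 13.4% lower. Over the 4 comparisons, 14 of 16 member differences were within their stated error on the deposited signals. The 2 outside it were those of miR-1937c for E14 against E12 and for E16 against E11. Of all entries, 18.5% to 26.0% were within error in a comparison. The 4 comparisons share arrays, so the 16 differences are not separate checks.

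The members' share of each array's summed detected signal was large and differed between stages. A share is taken within 1 array, so it needs no scaling, but probes differ in affinity and a share of signal is not a share of molecules. Together the 4 entries held 58.4% ± 1.6 at E11, 49.2% ± 1.6 at E12, 37.1% ± 1.6 at E14 and 42.5% ± 1.6 at E16. miR-1937b made up most of this, with 50.1%, 41.9%, 31.8% and 36.5%. miR-720 held 6.60%, 5.89%, 4.16% and 4.84%. miR-1937c held 0.80%, 0.68%, 0.57% and 0.62%, and miR-1274a 0.93%, 0.76%, 0.58% and 0.59%. For each member and for the sum, the share was highest at E11 and lowest at E14. The stated errors at E14 and E16 overlapped for miR-720 (4.16% ± 0.36 and 4.84% ± 0.42) and miR-1937c (0.57% ± 0.046 and 0.62% ± 0.050). They also did for miR-1274a (0.58% ± 0.050 and 0.59% ± 0.051), but not for miR-1937b (31.8% ± 1.66 and 36.5% ± 1.74).

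On the deposited signals, the sum of the other entries differed more between stages than that of the members. A constant shift per array leaves the share unchanged, but not these sums. After the percentile scaling described above, each member was lower at E16 than at E11. In the authors' table, which is quantile-normalized, the joint share did change, to 51.6% at E11 and 49.6% at E16. There miR-720 and miR-1937b had equal values at these stages, and the other members were lower at E16. The summed deposited signal of the members was 80385, 81056, 81551 and 85848 at E11, E12, E14 and E16, while that of all other detected entries was 57196, 83572, 138211 and 115927. From E11 to E16 the members' sum was thus 1.07 times as high and that of the others 2.03 times. At E14 the members were at 1.01 times their E11 sum, and the others at 2.42 times.

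**Figure D4:**
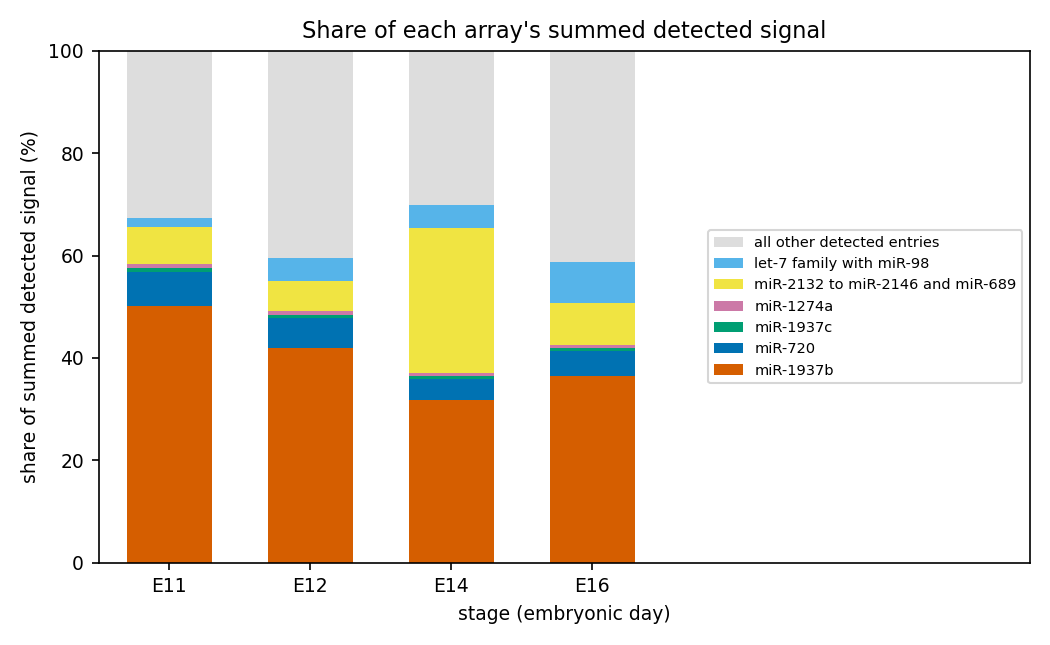
Share of the summed detected signal (vertical axis, percent) by stage, stacked for miR-1937b, miR-720, miR-1937c and miR-1274a, then for the entries miR-2132 to miR-2146 with miR-689, the let-7 family with miR-98, and all other detected entries. The 4 members hold 58.4% at E11, 37.1% at E14 and 42.5% at E16, and the miR-2132 to miR-2146 block is widest at E14 with 28.2%.

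A block of neighbouring catalogue numbers, miR-2132 to miR-2146 with miR-689, resembles the members in having mostly names unmatched in the RefSeq table, and behaved differently. While 0 of 4 members were at least 2-fold higher at E14 than at E12 as deposited, 11 of the 11 block entries detected on all arrays were. The share over all 212 entries was 17.0%. The median log2 difference was 0.02 for the members and 2.79 for the block. No test was possible with 1 array a stage. miR-2141, for example, read 3913.5 ± 298, 3841 ± 293, 26626 ± 2060 and 6546 ± 505 at E11, E12, E14 and E16, and miR-2140 read 1416 ± 103.6, 1189 ± 87.2, 13567 ± 995 and 2696 ± 201. The control feature hur_6 was also highest at E14. The block's share of summed signal was 7.23%, 5.74%, 28.2% and 8.24%. With the block left out of the denominator, a choice made after seeing the data, the members' share was 63.0%, 52.2%, 51.7% and 46.4%, and the low point at E14 was gone. Of all 38 other unmatched names, 13 were detected on all arrays, 10 of them entries of that block. On the deposited signals 0 of the 13 had a range as narrow as the members, but neither had any other entry detected on all arrays.

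The let-7 family, microRNAs that are known to accumulate as embryonic cells differentiate, differed from the members on the same arrays. let-7a read 666 ± 48.8, 2165 ± 159, 2706 ± 199 and 3851 ± 284 at E11, E12, E14 and E16. The family's share of summed signal was 1.67%, 4.61%, 4.53% and 7.96% at these stages. The median E16 minus E11 difference of the 4 members was 0.10 on the deposited signals, against 3.02 for the let-7 family. After scaling it was -1.33 for the members, against 1.58 for the family. At least 2-fold higher at E16 than at E11 as deposited were 0 of 4 members and 8 of 9 family members, against 44.9% of all 205 entries.

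The 4 members differed little from each other. A difference between the log2 changes of 2 entries is free of any constant scaling, and over the 6 pairs its size for E16 minus E11 was 0.01 to 0.29. It was within its combined stated error for 5 of the 6. The exception was miR-1937c minus miR-1274a, at 0.29 ± 0.23. The closest pair was miR-720 and miR-1937b, at 0.01 ± 0.23. The ratio of miR-1937b to miR-1937c, which share a catalogue number, was 62.4, 61.4, 55.8 and 58.4 at E11, E12, E14 and E16.

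Likeness of course was measured as the root mean square difference of 2 log2 profiles, each centred on its own mean over the 4 arrays. Against 193 other entries the median for a member was 0.54 to 0.59. The nearest entry to miR-720 was miR-1937b, at 0.04, which is also a member. Outside the members, miR-25, miR-149 and miR-675-3p were nearest to miR-720 (0.05, 0.07 and 0.07), and miR-25, miR-93 and miR-149 to miR-1937b (0.08, 0.09 and 0.10). miR-93, miR-15b and miR-182 were nearest to miR-1937c (0.07, 0.08 and 0.12), and miR-149, miR-1949 and miR-25 to miR-1274a (0.08, 0.09 and 0.10). Only 4 points give a loose likeness, and any entry with a flat course comes out near. Some of the entries named were not flat. As deposited, E16 minus E11 was 0.49 ± 0.18 for miR-182, 0.40 ± 0.15 for miR-15b and 0.30 ± 0.17 for miR-93. For miR-25, miR-149, miR-1949 and miR-675-3p it was within its combined stated error. miR-675-3p was also dim, with signals of 15.5 to 18.9 and an error of 0.35 on that difference.

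Of these 7 entries, 6 have a mature sequence in the RefSeq table (GRCm38.p6). The sequences are shown, 5′ to 3′ with the seed (bases 2 to 8) in capitals, because these are the entries whose course was closest to that of the members. Probes named without an arm were taken as the main arm.
miR-25-3p (chr5:138165332-138165353, minus strand): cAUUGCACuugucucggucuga
miR-93-5p (chr5:138165574-138165596, minus strand): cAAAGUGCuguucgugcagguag
miR-149-5p (chr1:92850381-92850403, plus strand): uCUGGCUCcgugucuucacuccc
miR-15b-5p (chr3:69009775-69009796, plus strand): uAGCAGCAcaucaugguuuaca
miR-182-5p (chr6:30165962-30165986, minus strand): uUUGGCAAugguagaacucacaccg
miR-675-3p (chr7:142577078-142577099, minus strand): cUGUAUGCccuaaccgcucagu
The 6 seeds are all different, so no shared seed joins them. miR-25 and miR-93 come from the cluster inside the Mcm7 gene, and miR-675 from the imprinted H19 transcript. miR-25 read 678 ± 51.1, 736 ± 55.7, 637 ± 48.1 and 705 ± 53.2 at E11, E12, E14 and E16, and miR-149 read 119 ± 10.6, 137 ± 12.6, 124 ± 11.1 and 122 ± 11.3. Their log2 ranges were 0.21 and 0.20, just above that of miR-1937c.

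The authors' series table gave another course for the brightest members. All its detected values came out to within 1.15e-05 percent when the deposited signals were quantile-normalized with all 718 features included. Such a normalization gives a feature its value by rank alone. miR-1937b ranked 2, 2, 3 and 2 among all features at E11, E12, E14 and E16, and its values in the table were 80329, 80329, 58645 and 80329. miR-720 ranked 6, 6, 8 and 6, with 11919, 11919, 7209 and 11919. At E14 hur_6 was at rank 2, ahead of miR-1937b, and miR-2141 and miR-2140 at ranks 5 and 7, ahead of miR-720.

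The lower values of miR-1937b and miR-720 at E14 in that table thus went with a change of rank, beside deposited signals at E14 of 1.01 and 0.94 times those at E12. The 2 dimmer members fell in rank over the series. miR-1274a went through ranks 19, 24, 33 and 38 with table values of 1839, 1377, 944 and 841, and miR-1937c through 23, 26, 34 and 33 with 1543, 1246, 933 and 944. In the table the E16 minus E11 log2 difference was 0 for miR-1937b and miR-720, -0.71 for miR-1937c and -1.13 for miR-1274a, beside a median of -0.41 over 205 entries. miR-1937b and miR-720 were thus above the median, with 124 entries lower, and the table separates members whose deposited signals differed little in course.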

How the data were processed

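MicroRNA arrays of mouse molar tooth germs were analysed at 4 stages, with 1 array a stage. Per the file headers, the deposited intensity is a total gene signal with a stated error and a detection flag. An undetected feature is written as 0.1. The sources do not state the software version or how background was handled. The authors' series value table, also intensity on a linear scale, served as an alternative. Its column medians over detected values were 123, 106, 83.7 and 83.0 at E11, E12, E14 and E16.

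Control features were left out of counts, of the percentile and median scalings and of the main shares. Quantile normalization, the ranks and an alternative denominator included them. Log2 signals were scaled to the 75th percentile of the entries detected on all arrays. Differences are later minus earlier, and their errors combine the stated errors of both signals. An entry counted as higher or lower at 2-fold, a rule of size and not of significance. Shares divide by the summed signal of all detected non-control entries. Alternatives were 5 other scalings, a 1.5-fold rule and other denominators. For each member the 3 most alike entries were named, and of each comparison list at most 4 entries of highest mean signal. The members, lists and rules were chosen with earlier results of these data known. Some of the scalings and the likeness step were tried on simulated data, while the errors, shares, ranges and counts were not. Python 3.11.15, pandas 2.3.3 and numpy 2.4.6 were used.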

Additional observations from a re-analysis of the deposited data

How the results depend on the processing

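The sign of the E16 minus E11 difference depended on the scaling for miR-720, miR-1937b and miR-1937c. miR-1274a stayed negative throughout, but on the deposited signals its -0.10 ± 0.17 was within its stated error. With 1 array a stage no replicate could be left out. No paired analysis was possible because each stage has 1 array. The median E16 minus E11 difference of the members, -1.33, was -0.82 with median scaling, -0.35 with quantile normalization and in the authors' table, and turned to 0.10 on the deposited signals. There miR-720 turned to 0.11 ± 0.17, miR-1937b to 0.10 ± 0.15 and miR-1937c to 0.19 ± 0.15. Those of miR-720 and miR-1937b were within their stated error. Except with quantile normalization, these scalings differ by a constant per array. The 4 members at least 2-fold lower became 1 with median scaling (35 of all 205 entries), 1 with quantile normalization or the authors' table (64 of 205), and 0 on the deposited signals (9 of 205). For E12 against E11 the median, -0.66, was -0.84 with the percentile over all probes, -0.15 with quantile normalization and in the authors' table, and 0.013 on the deposited signals, and a 1.5-fold rule called 3 members lower in place of 0 (52 of all 201 entries). For E14 against E12 the median, -0.39, was 0.023 on the deposited signals and -0.15 with median scaling. For E16 against E14 it was -0.31, and -0.063 with median scaling, 0.24 with quantile normalization and in the authors' table, and 0.043 on the deposited signals. Quantile normalization and the authors' table also set miR-720 and miR-1937b each apart from miR-1937c by 0.71 and from miR-1274a by 1.13 in their change. The members' joint share with control features in the denominator was 18.8%, 18.5%, 14.4% and 17.5% at E11, E12, E14 and E16. Without the members in it, their sum was 140.5%, 97.0%, 59.0% and 74.1% of the rest. In the authors' table the share was 51.6% at E11, 50.3% at E12, 38.1% at E14 and 49.6% at E16. Without miR-2132 to miR-2146 and miR-689, added after seeing the data, it was 63.0%, 52.2%, 51.7% and 46.4%. The widest member range, 0.19 on the deposited signals, was 1.02 to 1.57 under the other 5 scalings. The likeness of 2 profiles cannot change with a constant per array, while of the 3 entries most like each member 0 to 1 were shared in the authors' table.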
